A study of Homo sapiens with 6 samples.

Results

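H9 is a human cutaneous T-cell lymphoma cell line, and its libraries were examined here for 10 genes of the NF-κB system. The members were the 5 subunit genes (NFKB1, NFKB2, REL, RELA and RELB) and 5 genes of feedback inhibitors or regulators (NFKBIA, NFKBIB, NFKBIE, TNFAIP3 and BCL3), taken by symbol from 61541 Ensembl genes. Bulk RNA-seq covered 3 libraries of H9 cells treated with the vehicle DMSO and 3 of H9 cells treated with AZD4573 for 4 h at a dose of 50 nM, all labelled as wild type. AZD4573 is a selective inhibitor of CDK9, the kinase of P-TEFb that releases paused RNA polymerase II into elongation. The labels give no exposure time for DMSO. For AZD4573 a figure legend of the study gives 4 h for this RNA-seq, as the labels do, whereas its discussion names a longer exposure. The labels also do not say whether the 3 libraries of a group came from separate cultures, so that p-values measure only the spread among these libraries. All libraries came from 1 cell line, and a bulk library cannot tell fewer cells of a type from less RNA per cell.

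NF-κB transcription factors are dimers of the REL family proteins. RELA, REL and RELB carry transactivation domains, whereas NFKB1 and NFKB2 encode precursors whose processed forms, p50 and p52, bind DNA without such a domain. In the canonical route, the IKK complex phosphorylates the IκB proteins encoded by NFKBIA, NFKBIB and NFKBIE, which are then degraded and free the dimers. In the non-canonical route, the kinase encoded by MAP3K14 leads to the processing of the NFKB2 precursor and to the release of RELB dimers. NFKBIA and TNFAIP3 are transcribed upon NF-κB activation and close feedback loops. The H9 line is a derivative of HuT78, in which a rearrangement that truncates the end of NFKB2 has been described, and counts per gene cannot tell truncated from intact transcripts.

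The promoter windows of the members are shown first, since the family is known to regulate its own genes. RefSeq windows on GRCh38.p14, each from 250 bases before to 50 bases after an annotated start, were found for 8 of the 10 members (13 windows). The windows were searched on both strands for the κB consensus, with overlapping matches merged. A match was present in 8 windows of 7 members, as compared with 5.91% of all 35116 windows. The exception among these 8 members was RELA, with no match in its 2 windows. No window of a member held TATAAA on its own strand, as compared with 7.33% of all windows. NFKB2 and RELA are printed with a whole window each, because they had the largest changes among the members in each direction. Capitals mark κB matches, and each sequence is given in the direction of its gene.
NFKB2 chr10:102394328-102394627, plus strand: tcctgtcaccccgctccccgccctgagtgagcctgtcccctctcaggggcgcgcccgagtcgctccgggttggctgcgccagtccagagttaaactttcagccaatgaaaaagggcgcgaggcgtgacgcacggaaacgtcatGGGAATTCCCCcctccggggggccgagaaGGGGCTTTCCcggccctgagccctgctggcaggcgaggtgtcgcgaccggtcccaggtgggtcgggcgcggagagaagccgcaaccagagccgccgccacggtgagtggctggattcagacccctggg
RELA chr11:65662867-65663166, minus strand: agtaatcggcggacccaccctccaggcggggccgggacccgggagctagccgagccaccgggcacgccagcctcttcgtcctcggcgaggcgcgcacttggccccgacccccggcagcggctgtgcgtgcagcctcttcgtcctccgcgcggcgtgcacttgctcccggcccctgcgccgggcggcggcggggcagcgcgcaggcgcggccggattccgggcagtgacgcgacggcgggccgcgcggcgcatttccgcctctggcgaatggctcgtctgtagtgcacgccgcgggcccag

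For the other members with a match, the matched stretch is printed with 12 bases on each side.
NFKB1 chr4:102501298-102501331, plus strand: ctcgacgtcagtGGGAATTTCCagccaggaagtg
REL chr2:60881515-60881549, plus strand: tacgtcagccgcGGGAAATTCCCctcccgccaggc
NFKBIA chr14:35404809-35404842, minus strand: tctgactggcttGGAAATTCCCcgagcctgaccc
NFKBIB chr19:38899929-38899963, plus strand: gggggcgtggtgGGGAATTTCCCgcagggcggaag
TNFAIP3 chr6:137867180-137867225, plus strand: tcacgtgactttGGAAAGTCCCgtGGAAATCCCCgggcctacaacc
BCL3 chr19:44748698-44748731, plus strand: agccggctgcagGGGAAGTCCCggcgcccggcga
The matches of NFKB1, REL, NFKBIA and NFKBIB began 49, 47, 81 and 28 bases before the annotated start. Matches of TNFAIP3 began 67 and 55 bases before it. In the window of NFKB2 that is printed, matches began 107 and 78 bases before the start, and a further window of the gene held matches at 176 and 21 bases. Another window of NFKB2 held no match, and neither did a further window of NFKB1 and of NFKBIB. The match of BCL3 lay just past its start. A match describes the letters of the window only, and binding of a factor was not measured in these libraries.

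Counts were normalised by edgeR's TMM method, given as CPM (counts relative to the TMM-adjusted total of the library), and the groups were compared for 17678 genes in edgeR. Its quasi-likelihood test was used, and p-values were adjusted by the Benjamini-Hochberg method over all these genes (edgeR adjusted p). SE is the standard error of a log2 fold change. All 10 members passed the filter on low counts. At an adjusted p under 0.05, 2 members rose upon AZD4573 treatment (NFKB2 and BCL3), 6 fell (RELA, NFKBIB, NFKBIE, NFKB1, RELB and TNFAIP3) and 2 did not pass the test (REL and NFKBIA). With these libraries, 74.7% of all genes tested passed the same threshold, 37.3% as higher and 37.4% as lower. With a fold change of at least 1.5 as well, NFKB2 was the only member called higher and RELA the only one called lower, as compared with 22.7% and 23.7% of all genes. No member reached a fold change of 2 (0 called by edgeR), as compared with 15.0% of all genes called higher and 13.9% called lower at that size. The median log2 fold change was -0.19 over the members and 0.03 over all genes.

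The sizes and calls of these changes, and the direction of BCL3, rest on how the libraries were scaled. The 13 mitochondrially encoded mRNAs, which are not transcribed by RNA polymerase II, took 3.04 to 3.22% of the counts with DMSO and 4.67 to 4.98% with AZD4573. Scaled to these mRNAs, the median log2 fold change of all genes was -0.71, and 79.3% of all genes were called, 67.2% as lower and 12.1% as higher. In this scaling 9 members were called lower (BCL3 among them, with its direction turned) and NFKB2 was not called. With a fold change of at least 1.5 as well, 8 members were called lower, as compared with 53.4% of all genes. A change of scaling moves the log2 fold changes of all genes by nearly the same amount. The distance of a member from the median of all genes is therefore kept by construction. It is also given for the members with the largest changes. Directions named below are those with TMM.

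**Figure D1:**
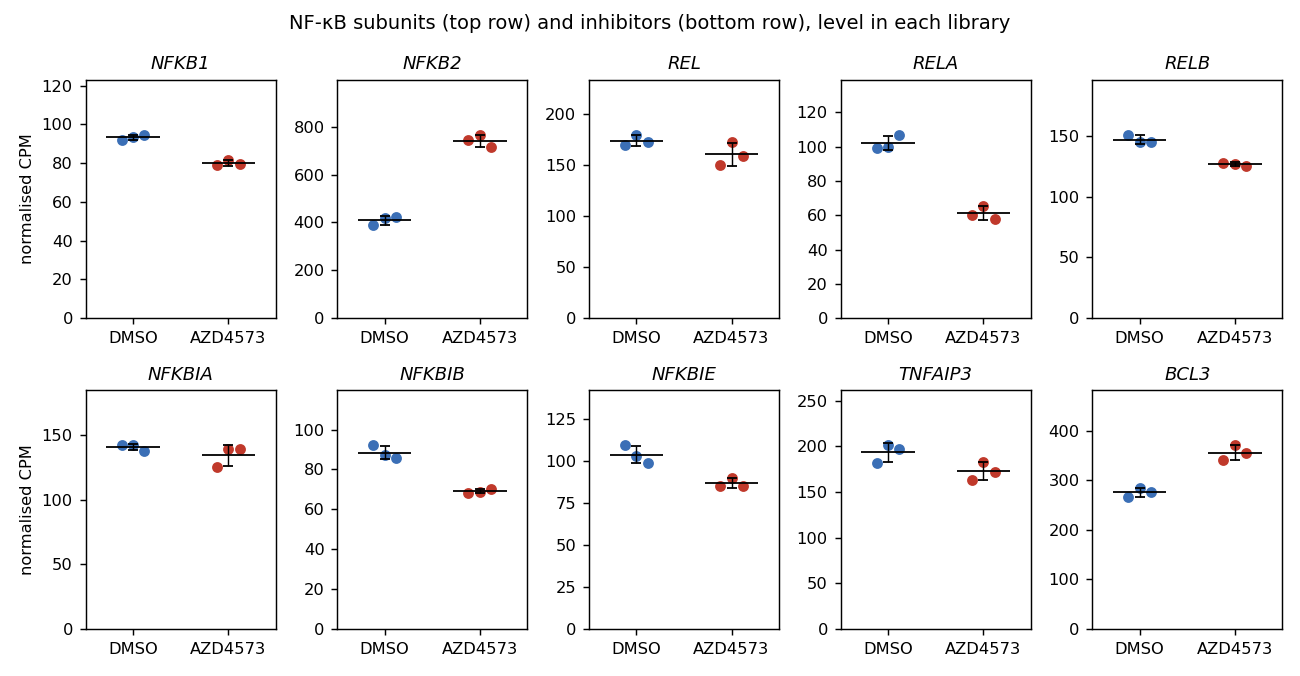
TMM-normalised CPM of each of the 10 members in each library (points), with the mean and SD over the 3 DMSO and the 3 AZD4573 libraries. NFKB2 rose from 410 to 741 CPM and RELA fell from 102 to 61.3 CPM, with TMM scaling; scaled to the mitochondrial mRNAs, NFKB2 was not called and BCL3 was lower.

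Of the subunits, NFKB2 (ENSG00000077150), which encodes the precursor of the non-canonical route, had the largest change. It lies on chromosome 10 of GRCh38 from 102394110 to 102402524 on the plus strand. Its transcripts were at 388, 417 and 424 CPM in the 3 DMSO libraries and at 743, 766 and 715 CPM in the 3 AZD4573 libraries. Every AZD4573 library lay above every DMSO library, by more than the spread within either group. The means were 410 ± 18.9 CPM with DMSO and 741 ± 25.6 CPM with AZD4573 (SD, n = 3 each, as for all CPM means here). This was a 1.81-fold rise, a log2 fold change of 0.86 (SE 0.0464, edgeR adjusted p = 1.9e-09). Relative to the median of all genes NFKB2 was higher by 0.83 on the log2 scale, and 82.0% of all genes had a lower log2 fold change. With the libraries scaled to the mitochondrial mRNAs it did not pass the test, at a log2 fold change of 0.12 (edgeR adjusted p = 0.0684).

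RELA (ENSG00000173039), the transactivating partner in the prototypical NF-κB dimer, had the largest fall. The gene lies on chromosome 11 from 65653599 to 65663090 on the minus strand, and 103 of its 5457 exon bases are shared with the opposite-strand gene RELA-DT. Its transcripts were at 99.5, 100 and 107 CPM with DMSO and at 60.3, 65.6 and 57.8 CPM with AZD4573. The groups did not overlap, and the lowest DMSO library stood well clear of the highest AZD4573 library. RELA fell 1.67-fold, from 102 ± 4.24 to 61.3 ± 3.98 CPM, with a log2 fold change of -0.74 (SE 0.0548, edgeR adjusted p = 3.6e-08). Relative to the median of all genes its log2 fold change was -0.77, and 20.4% of all genes had a lower log2 fold change. By the mitochondrial scaling RELA was also called lower, at -1.48.

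NFKB1 and RELB fell by small amounts that were larger than the spread among libraries. NFKB1 (ENSG00000109320, chromosome 4, 102501330 to 102617302), which encodes the precursor of p50, was at 92.2, 93.5 and 94.7 CPM with DMSO and at 78.9, 81.6 and 79.8 CPM with AZD4573. RELB (ENSG00000104856, chromosome 19, 45001461 to 45038192), the partner of the processed NFKB2 product, was at 151, 145 and 145 CPM with DMSO and at 128, 127 and 125 CPM with AZD4573. For both genes the AZD4573 libraries lay below all DMSO libraries. The log2 fold changes were -0.22 for NFKB1 (SE 0.0422, edgeR adjusted p = 3.2e-04) and -0.21 for RELB (SE 0.0404, edgeR adjusted p = 3.0e-04).

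REL (ENSG00000162924, chromosome 2, 60881491 to 60931612), the subunit known for its roles in activated lymphocytes, did not pass the test. Its transcripts were at 170, 180 and 173 CPM with DMSO and at 150, 173 and 159 CPM with AZD4573. The groups overlapped, since the second AZD4573 library lay above the first DMSO library. REL had a log2 fold change of -0.12 (SE 0.0524, edgeR adjusted p = 0.0616). REL was called lower without the first DMSO library (log2 fold change -0.14), without the second AZD4573 library (-0.18) and by DESeq2 (-0.13). It was also called lower with scaling by library size alone (-0.22), with all low-count genes kept (-0.16) and by the mitochondrial scaling (-0.86). Of the 17129 exon bases of REL, 5702 are shared with ENSG00000267520 on the same strand, so that the division of reads between them is uncertain.

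Among the IκB genes, NFKBIA was the one without a call. NFKBIA (ENSG00000100906, chromosome 14, 35401079 to 35404749, minus strand) encodes IκBα, the inhibitor with the best known feedback loop. Its transcripts were at 142, 142 and 138 CPM with DMSO and at 125, 139 and 139 CPM with AZD4573. Only the first AZD4573 library lay apart from the others, and the groups overlapped. The log2 fold change of NFKBIA was -0.06 (SE 0.0476, edgeR adjusted p = 0.243). With library size as the only scaling it was called lower, at -0.17 (edgeR adjusted p = 0.00402), and likewise by the mitochondrial scaling, at -0.80.

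NFKBIB (ENSG00000104825, chromosome 19, 38899700 to 38908893), which encodes IκBβ, fell the most among the inhibitors. It was at 92.0, 87.3 and 85.6 CPM with DMSO and at 68.3, 68.6 and 70.3 CPM with AZD4573. The AZD4573 libraries were close to each other and all below the DMSO libraries. Its log2 fold change was -0.35 (SE 0.0458, edgeR adjusted p = 9.6e-06). NFKBIE (ENSG00000146232, chromosome 6, 44258166 to 44265788, minus strand), which encodes IκBε, was at 109, 103 and 98.8 CPM with DMSO and at 84.7, 89.9 and 85.1 CPM with AZD4573. The groups of NFKBIE did not overlap either, and its log2 fold change was -0.26 (SE 0.0489, edgeR adjusted p = 3.1e-04).

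TNFAIP3 (ENSG00000118503, chromosome 6, 137867214 to 137883314) encodes A20, a ubiquitin-editing enzyme that ends signalling upstream of the IKK complex. Its transcripts were at 182, 201 and 197 CPM with DMSO and at 163, 183 and 172 CPM with AZD4573. The groups overlapped, since the second AZD4573 library lay just above the first DMSO library. TNFAIP3 fell from 194 ± 10 to 173 ± 10.3 CPM, with a log2 fold change of -0.16 (SE 0.0525, edgeR adjusted p = 0.0121). With each library left out in turn the call was kept, at an edgeR adjusted p of up to 0.0477.

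BCL3 (ENSG00000069399, chromosome 19, 44747705 to 44760044) encodes a nuclear IκB-like protein that binds p50 and p52 dimers and can act as a coactivator. The gene lies 241416 bases from RELB. It was at 266, 285 and 276 CPM with DMSO and at 340, 370 and 355 CPM with AZD4573. All AZD4573 libraries lay above all DMSO libraries. BCL3 rose 1.29-fold, from 276 ± 9.47 to 355 ± 14.8 CPM, with a log2 fold change of 0.36 (SE 0.0444, edgeR adjusted p = 5.4e-06), and this direction turned to -0.37 by the mitochondrial scaling (edgeR adjusted p = 6.4e-06). Relative to the median of all genes it was higher by 0.34 by either scaling, a distance that is kept by construction.

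**Figure D2:**
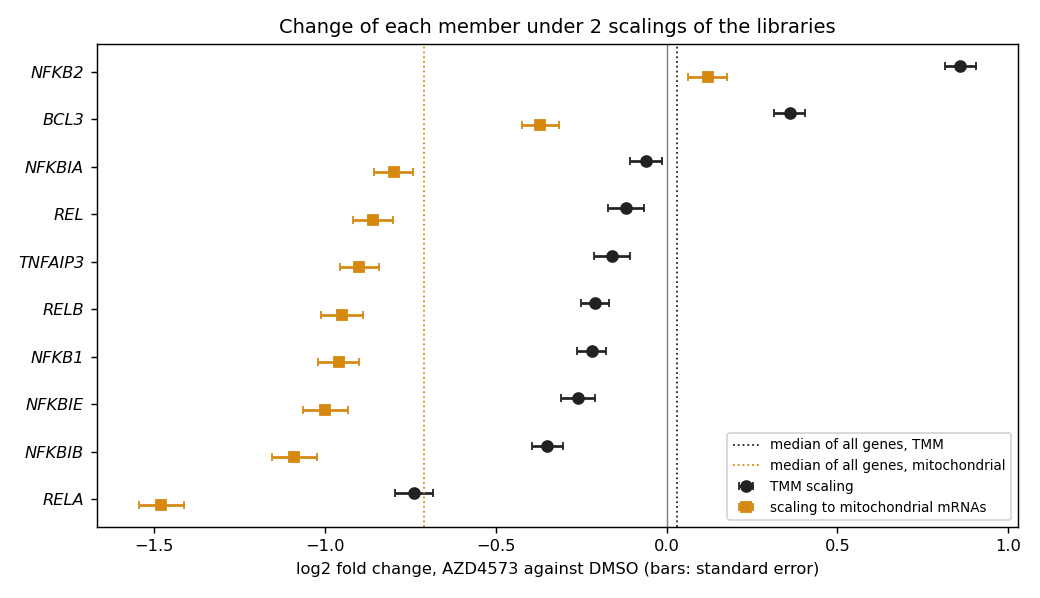
Log2 fold change (AZD4573 minus DMSO) of each member with its standard error, with TMM scaling and with scaling to the mitochondrial mRNAs. The order of the members is kept by construction, and the mitochondrial scaling placed every member lower, NFKB2 at 0.12 and BCL3 at -0.37.

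Of the 10 members, 7 had groups that did not overlap, as compared with 77.8% of all genes tested (39.0% with AZD4573 higher and 38.7% with AZD4573 lower). The members with overlapping groups were REL, NFKBIA and TNFAIP3. With each library left out in turn, NFKB2 kept a log2 fold change of 0.81 to 0.88, RELA of -0.80 to -0.71, NFKBIB of -0.39 to -0.33 and BCL3 of 0.33 to 0.39. Those of NFKB1, RELB and NFKBIE lay between -0.30 and -0.20.

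Levels of different genes were compared per kilobase of exon (RPKM, the CPM divided by the merged exon length in kilobases). With DMSO, BCL3 was highest at 89.1 ± 3.06 RPKM and NFKB2 next at 73.4 ± 3.39 RPKM. RELB followed at 49.1 ± 1.25 RPKM. With this length the 3 IκB genes lay close together, NFKBIA at 41.4 ± 0.588 RPKM, NFKBIE at 40.1 ± 1.97 RPKM and NFKBIB at 38.0 ± 1.42 RPKM, and the libraries of NFKBIE overlapped those of both others, so that the order of these neighbours was not resolved. TNFAIP3 was at 30.0 ± 1.56 RPKM. RELA, REL and NFKB1 were lowest, at 18.8 ± 0.778, 10.2 ± 0.323 and 5.96 ± 0.0792 RPKM.

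With AZD4573 the order of BCL3 and NFKB2 was exchanged. NFKB2 was at 133 ± 4.58 RPKM and BCL3 at 115 ± 4.78 RPKM, without overlap of their libraries in either group. NFKBIA was at 39.6 ± 2.33 RPKM, apart from NFKBIE at 33.5 ± 1.12 and NFKBIB at 29.7 ± 0.449 RPKM. RELA was at 11.2 ± 0.73 RPKM, and its lowest library (10.6 RPKM) was above the highest of REL (10.1 RPKM). BCL3 and NFKB2 held the upper 2 places, and RELA, REL and NFKB1 the lowest 3, also with the longest or the MANE Select transcript as the length. The order between them depended on the length. With MANE Select transcripts in DMSO, NFKBIA (90.2 RPKM) and NFKBIB (74.1 RPKM) lay above RELB (65.1 RPKM) and well above NFKBIE (44.2 RPKM), so that the closeness of the IκB genes was lost.

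The subunits were also expressed as shares of their own sum per length, which do not depend on the scaling of libraries. NFKB2 made up 45.1, 47.3 and 47.5% of the subunit transcripts with DMSO and 66.3, 66.3 and 65.7% with AZD4573. The AZD4573 libraries were nearly alike and all above the DMSO libraries, a difference of 19.5 percentage points between the means. RELA took 11.8, 11.6 and 12.3% with DMSO and 5.51, 5.81 and 5.43% with AZD4573. RELB went from 31.2% ± 1.39 to 21.1% ± 0.534, and the shares of REL and NFKB1 went from 6.47% ± 0.185 to 4.67% ± 0.267 and from 3.79% ± 0.0246 to 2.55% ± 0.0581. All subunits other than NFKB2 had a smaller share with AZD4573. Since the shares add up to the whole, a rise of NFKB2 lowers the sum of the others by construction. A smaller share is thus not by itself a fall of that gene, and REL did not pass the test per gene. The shares do depend on the gene length: NFKB1 took 8.22% with DMSO by MANE Select transcripts, above REL at 5.59%, and 10.1% by plain counts. These are values without a test, and the rise of the NFKB2 share was 19.2 to 19.7 percentage points by every length.

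**Figure D3:**
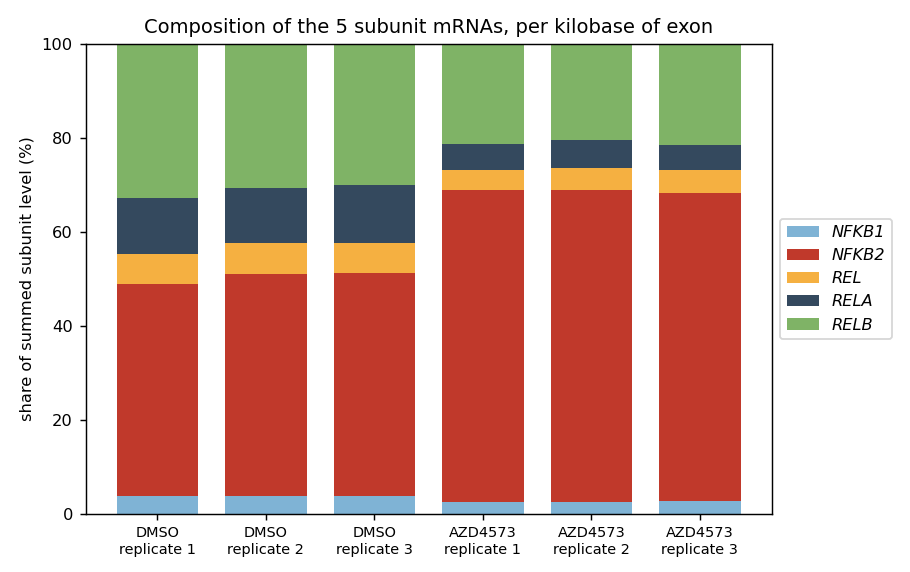
Share of each subunit in the summed length-normalised levels of the 5 subunits (%), 1 bar per library. NFKB2 took 45.1 to 47.5% in the DMSO libraries and 65.7 to 66.3% in the AZD4573 libraries.

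Ratios between members within a library were compared for 3 pairs with an exact two-sided permutation test, which cannot go below p = 0.1 with 3 against 3 libraries. NFKB2 to NFKB1, the ratio of both precursor genes per length, was 11.8, 12.5 and 12.6 with DMSO and 26.4, 26.4 and 25.2 with AZD4573. NFKBIA to RELA, the inhibitor to its main bound subunit, was 2.29, 2.27 and 2.07 with DMSO and 3.34, 3.41 and 3.86 with AZD4573. REL to RELA was 0.544, 0.573 and 0.512 with DMSO and 0.794, 0.841 and 0.876 with AZD4573. In each pair the AZD4573 libraries lay above all DMSO libraries, with a 2.11-fold difference for NFKB2 to NFKB1, 1.6-fold for NFKBIA to RELA and 1.54-fold for REL to RELA. The exact permutation p was 0.1 for each pair and also 0.1 adjusted over the 3 pairs, the smallest value this design allows. The level of a ratio depends on the gene length while its fold between groups does not: by MANE Select transcripts NFKB2 to NFKB1 was 5.9 ± 0.201 with DMSO and 12.4 ± 0.345 with AZD4573 (SD, n = 3).

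The sum of NFKBIA, NFKBIB and NFKBIE relative to the sum of the 5 subunits, per length, was 0.802, 0.754 and 0.724 with DMSO and 0.494, 0.509 and 0.534 with AZD4573. All AZD4573 libraries were lower, at 0.674 of the DMSO mean. This direction rested on NFKB2. With NFKB2 left out of the sum, an alternative chosen after seeing the data, the ratio was 1.46, 1.43 and 1.38 with DMSO and 1.47, 1.51 and 1.56 with AZD4573, or 1.06 of the DMSO mean.

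The other genes of the pathway were taken from 5 lists and 2 further nuclear IκB genes. NFKBIZ, which encodes an atypical nuclear IκB, rose from 14.1 ± 1.58 to 26.8 ± 0.876 CPM (log2 fold change 0.93, edgeR adjusted p = 1.5e-07), and by the mitochondrial scaling it was not called, at 0.19 (edgeR adjusted p = 0.0575). NFKBID, which encodes another, fell from 14.8 ± 1.97 to 5.11 ± 0.517 CPM, with a log2 fold change of -1.54 (edgeR adjusted p = 3.3e-08). The 3 nuclear IκB genes, BCL3 included, thus did not share 1 direction with TMM, and by the mitochondrial scaling BCL3 and NFKBID were called lower.

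Of the 110 genes in the 5 lists, 101 passed the filter on low counts. At an adjusted p under 0.05, 29 rose, 48 fell and 24 did not pass the test, next to 37.3% higher and 37.4% lower among all genes. With a fold change of at least 1.5 as well, 11 were called higher and 30 lower, next to 22.7% and 23.7% of all genes. The counts of each list below are to be read beside these shares of all genes. The median log2 fold change of the 101 genes was -0.16, close to the -0.19 of the members and below the 0.03 of all genes. By the mitochondrial scaling 7 were called higher and 91 lower, next to 12.1% and 67.2% of all genes.

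Among the 11 genes of the IKK complex and its upstream kinases, 3 rose and 7 fell, with a median log2 fold change of -0.22. CHUK, which encodes the catalytic subunit IKKα, fell from 46.8 ± 0.615 to 17.2 ± 1.49 CPM (log2 fold change -1.44, edgeR adjusted p = 3.5e-10). IKBKB, encoding the other catalytic subunit, fell by 0.12 on the log2 scale (edgeR adjusted p = 0.0489), a call lost in 8 alternatives. IKBKG, encoding the regulatory subunit NEMO, rose from 58.0 ± 1.59 to 68.5 ± 1.16 CPM (log2 fold change 0.24), and turned to -0.50 by the mitochondrial scaling. The 3 genes of 1 complex thus had unequal changes. MAP3K14, the kinase of the non-canonical route, fell by 0.39 on the log2 scale, from 21.4 ± 2.84 to 16.3 ± 1.74 CPM. TBK1 and MAP3K7, a kinase related to the IKKs and the kinase TAK1, fell by 0.73 and 0.69. TAB2, an adaptor of TAK1, and TANK, a regulator of TBK1, rose by 0.35 and 0.18 and turned to -0.39 and -0.56 by the mitochondrial scaling. The call of TANK was also lost with scaling by library size alone (0.071), with all low-count genes kept (0.13) and without the third DMSO library (0.14).

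Receptor adaptors and ubiquitin ligases numbered 21, of which 6 rose and 9 fell, with a median of -0.05. RIPK1, a kinase recruited to the TNF receptor, fell from 36.7 to 11.6 CPM on average (log2 fold change -1.66, edgeR adjusted p = 2.8e-10). MALT1, the protease of the complex that links the T-cell receptor to NF-κB, fell from 55.2 to 18.3 CPM (log2 fold change -1.60). TRAF6, a ubiquitin ligase of the interleukin-1 and Toll-like receptor route, fell from 18.8 to 6.23 CPM (log2 fold change -1.59). The largest rises in this list were in RBCK1 and SHARPIN, subunits of the linear ubiquitin ligase, and in BIRC2, the ligase cIAP1. Their log2 fold changes were 0.82, 0.54 and 0.59, and by the mitochondrial scaling RBCK1 was not called (0.08) and the other two turned to -0.20 and -0.15.

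Among the other negative regulators, 13 of 15 genes were tested, of which 2 rose and 7 fell, with a median of -0.23. OTULIN, which removes linear ubiquitin chains, had the largest fall of this list, from 47.2 ± 0.931 to 14.4 ± 1.08 CPM (log2 fold change -1.71, edgeR adjusted p = 8.3e-11). CYLD, a deubiquitinase of linear and other chains, rose from 306 ± 8.51 to 398 ± 6.58 CPM (log2 fold change 0.38) and turned to -0.36 by the mitochondrial scaling. Both enzymes act on the same kind of chain. TNIP1, TNIP2 and TAX1BP1 encode binding partners of A20, and TNIP1 and TNIP2 fell by 0.23 and 1.14 on the log2 scale. TAX1BP1 rose by 0.27 and turned to -0.47 by the mitochondrial scaling. TRAFD1, a feedback regulator of innate signalling, fell by 1.28.

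Of the 7 genes for degradation and processing of IκB proteins and precursors, 2 rose and 3 fell, with a median of -0.10. BTRC, the F-box protein that recognises phosphorylated IκB, fell from 100 to 52.6 CPM (log2 fold change -0.93, edgeR adjusted p = 2.8e-07). CUL1, the scaffold of the same ligase, fell by 0.61, and UBE2D3, a ubiquitin-conjugating enzyme, fell by 0.16. SKP1, which links the F-box protein to the scaffold, rose by 0.27 and RNF123, a ligase known from the processing of the NFKB1 precursor, rose by 0.50, and by the mitochondrial scaling these turned to -0.47 and -0.24.

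The list of 56 known NF-κB target genes had 49 genes tested, of which 16 rose and 22 fell, with a median of -0.22. Over all genes, 37.3% were higher and 37.4% lower. With a fold change of at least 1.5 as well, 9 target genes were called higher and 15 lower, next to 22.7% and 23.7% of all genes. Both directions and large sizes were thus seen in this list as they were over all genes. CXCL10, a chemokine, fell from 7.07 ± 0.703 to 0.879 ± 0.157 CPM (log2 fold change -3.01, edgeR adjusted p = 1.1e-09). CD83, a surface marker of activated lymphocytes, and ICAM1, an adhesion molecule, fell by 1.49 and 1.33 on the log2 scale. BCL2L1, which encodes the survival protein BCL-XL, rose from 824 ± 25.5 to 2130 ± 177 CPM (log2 fold change 1.37, edgeR adjusted p = 2.4e-10). IER2, an immediate-early gene, and CCND2, a D-type cyclin, rose by 1.20 and 1.07. These 3 rises were also called by the mitochondrial scaling, at 0.63 for BCL2L1, 0.46 for IER2 and 0.33 for CCND2. In BCL2L1, 1735 of 4197 exon bases are shared with the opposite-strand gene ABALON. In IER2, 1608 of 3079 are shared with opposite-strand genes. In CCND2, 1105 of 7988 are shared with genes on both strands, and in ICAM1, 876 of 3448 with opposite-strand genes. Reads of such stretches cannot be assigned to a gene with certainty.

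**Figure D4:**
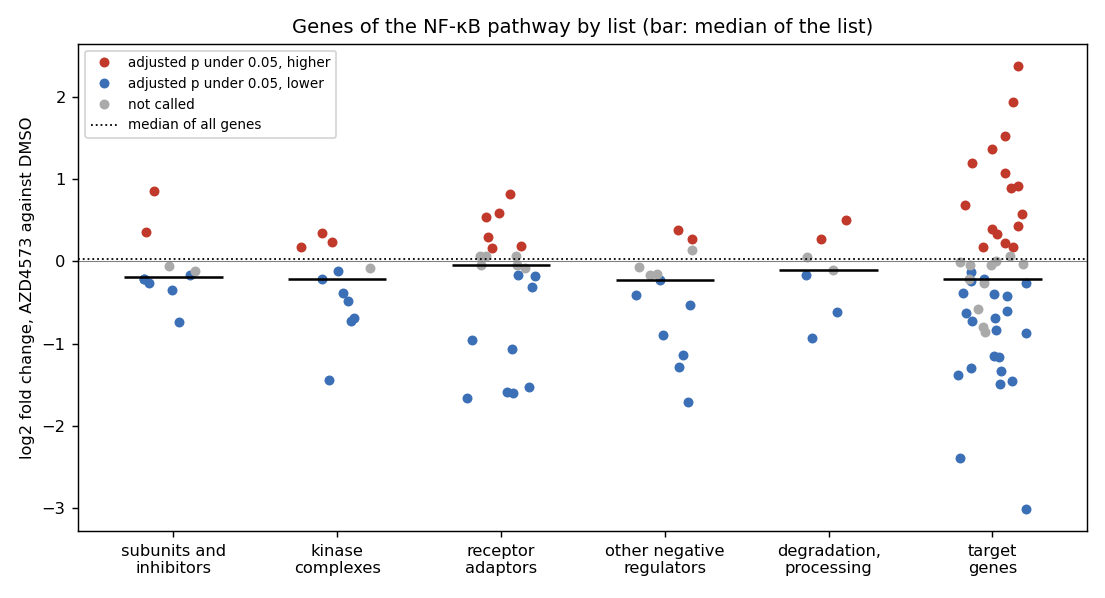
Log2 fold change (AZD4573 minus DMSO, TMM scaling) of each tested gene (points) in the members and in the 5 pathway lists, with the median of each list. The medians lay between -0.23 and -0.05, and by the mitochondrial scaling between -0.97 and -0.79.

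The labelled cell type was checked against its markers. Thresholds and sums of markers are CPM by the plain library total, and levels of single genes are TMM-normalised CPM as before. Of 9 T-cell markers, 8 reached 1 CPM and CD2 did not, and their summed level was 1070 to 1090 CPM with DMSO and 1230 to 1250 CPM with AZD4573. Of 4 B-cell markers, CD79A and CD79B reached 1 CPM while MS4A1 and PAX5 did not, with a sum of 63.4 to 68.4 CPM with DMSO and 90.0 to 98.1 CPM with AZD4573. These genes moved in opposite directions, CD79A from 57.8 ± 2.96 to 93.6 ± 4.99 CPM (log2 fold change 0.70, and -0.04 without a call by the mitochondrial scaling) and CD79B from 5.66 ± 0.0585 to 3.46 ± 0.272 CPM (log2 fold change -0.71). Of 5 myeloid markers only MPO reached 1 CPM, with sums of 0.274 to 0.512 and 1.1 to 2.03 CPM. MPO had 0 counts in every DMSO library and 82, 59 and 41 counts in the AZD4573 libraries. The part of these shifts in the members' changes was not tested. Total counts were 70367303 to 76571157 per library with DMSO and 52101868 to 63795185 with AZD4573, so that depth was lower in all AZD4573 libraries, and its part was not tested either.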

How the data were processed

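RNA of H9 cells was sequenced in 6 libraries, each mapped to its group by its label. Per the submitters' processing notes, reads were processed with cutadapt 2.3, STAR 2.7.8a and RSEM 1.3.3 on GRCh38. The authors deposited expected counts per gene as whole numbers without normalization, and RSEM at its defaults ignores strand, so that reads of genes overlapping on opposite strands cannot be told apart. The labels describe poly(A) RNA, whereas the supplemental methods describe rRNA depletion. A further 5 entries, reporter sequences with 0 counts, were left out.

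The groups were compared in edgeR 4.0.16 under R 4.3.3 (minimum count 10, TMM, quasi-likelihood test, Benjamini-Hochberg adjustment over 17678 genes, no replicate block). Library totals of 52101868 to 76571157 set the counting precision, and CPM errors are SD over 3 libraries. Exon lengths came from GENCODE release 44 and promoter windows from RefSeq. All 13 windows of the members matched the genome sequence. RELB and NFKBIE had no window. The default edgeR and DESeq2 fits were tested on simulated data in which few genes changed, evenly in both directions. Most genes were called in the real libraries, so that this test does not cover their scaling. The mitochondrial scaling was not simulated.

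The members, lists and tests were chosen with earlier results of these data known. A further marker gene is not reported here. Named genes were the members, NFKBIZ, NFKBID, CHUK, IKBKB, IKBKG, MAP3K14, CYLD, OTULIN and TNIP1, and in each list the 3 largest falls and rises that passed an adjusted p of 0.05, reached 5 CPM in the higher group and had no overlap between groups. Alternatives were RLE factors, library size, the 13 mitochondrial mRNAs, no filter, 10 counts in every library, DESeq2 1.42.0, a replicate block, each library left out in turn, a fold of 2 and other gene lengths. No library was a copy of another, since replicates differed beyond sampling noise (5.59 to 21.2 for the chi-square divided by its degrees of freedom).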

Additional observations from a re-analysis of the deposited data

How the results depend on the processing

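Over 13 alternatives, the calls of the members kept direction and side of the threshold in 119 of 130 values, with 1 reversed. Outside the mitochondrial scaling no named gene reversed. By the mitochondrial scaling, log2 fold changes reversed to -0.37 for BCL3, -0.50 for IKBKG, -0.36 for CYLD, -0.39 for TAB2, -0.56 for TANK, -0.15 for BIRC2, -0.20 for SHARPIN, -0.47 for TAX1BP1, -0.24 for RNF123 and -0.47 for SKP1. By that scaling 12.1% of all genes were called higher and 67.2% lower. With a fold of at least 1.5 these shares were 10.0% and 53.4%. Next to these shares, 0 members were called higher, and with a fold of at least 1.5 the counts were 0 higher and 8 lower. In the lists, 0 genes of the kinases, adaptors, negative regulators and degradation factors were then called higher and 11, 20, 13 and 7 lower. Of the targets 7 were higher and 40 lower. Over all lists 7 were higher and 91 lower, and with a fold of at least 1.5 the counts were 4 and 72. With a fold of at least 2 in place of 1.5, 0 members were called higher and 0 lower by edgeR, and 6 and 18 genes over all lists, next to 15.0% and 13.9% of all genes tested. The sum of IκB genes to subunits was 1.06 of its DMSO value without NFKB2. The cause of these differences was not tested.

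Levels per length in DMSO moved with the gene length used. With the longest transcript, NFKB1 was at 13.3 RPKM, NFKB2 at 120.0, REL at 15.5, RELA at 32.2, RELB at 65.1, NFKBIA at 54.9, NFKBIB at 40.1, TNFAIP3 at 35.6 and BCL3 at 147.0. With the MANE Select transcript, chosen after seeing the data, NFKB1 was at 23.0 RPKM, NFKB2 at 136.0, REL at 15.7, RELA at 40.7, RELB at 65.1, NFKBIA at 90.2, NFKBIB at 74.1, NFKBIE at 44.2, TNFAIP3 at 41.5 and BCL3 at 147.0. Shorter lengths raise these values by construction.

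The labels do not say whether libraries of the same replicate number were paired. The correlations of their deviations from the group means were -0.00613, 0.177 and -0.17. With 3 libraries per group these values cannot decide the question. With the replicate block, REL gained its call (log2 fold change -0.12, adjusted p = 0.0342 from edgeR) and IKBKB lost it (-0.12, adjusted p = 0.0607 from edgeR).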
